A study of Mus musculus with 7 samples.

Results

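The chemokine system of the mouse aorta was described from single-cell RNA sequencing as the set of genes named Ccl, Cxcl, Cx3cl1 and Xcl1 (ligands), Ccr, Cxcr, Cx3cr1 and Xcr1 (receptors) and Ackr1 to Ackr4 (atypical receptors). By symbol this gave 67 of 31253 annotated genes, namely 45 ligands, 18 receptors and 4 atypical receptors. Of these, 57 had at least 1 UMI (unique molecular identifier, 1 captured transcript) in the cells kept, and 46 had at least 100. The 10 entries with no UMI were all ligands, namely Ccl20, Ccl27b, Ccl21c, every entry of Ccl21b, and the copies of Ccl19, Ccl21a and Ccl27a on unplaced scaffolds. A count of 0 over all gated cells allows a level of up to 0.0087 UMI counts-per-million (CPM) (3 UMIs of the total, counting error only). Ccl19, Ccl21 and Ccl27 have near-identical copies in the genome between which reads can be split, so their values are uncertain.

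Chemokines are small secreted proteins that bind G protein-coupled receptors on leukocytes and guide them along gradients, and many are held on the vessel wall by glycosaminoglycans. CC ligands such as Ccl2 act mainly on monocytes and lymphocytes, and CXC ligands such as Cxcl1 and Cxcl2 act on neutrophils through Cxcr2. Cxcl12 retains cells that bear Cxcr4, and the atypical receptors take up ligands without G protein signalling and so shape gradients. In arteries the outer layer, the adventitia, holds the fibroblasts and many of the resident immune cells.

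The knockout group was 4 libraries from aortas of Slc38a2deltaEC mice, in which the amino acid transporter gene Slc38a2 is deleted in endothelial cells, and the control group was 3 libraries from Slc38a2flox/flox mice. All mice had eaten a high-salt diet for 3 weeks, so no value here separates the diet from a normal one. The Cre driver is not given in the sources used here. Whether each library is a different mouse is not stated, and p-values therefore rest on differences among libraries that may be technical. The labels call the cells goblet cells, but of 7 goblet cell genes Tff3 and Clca1 had 0 UMIs in all gated cells, and Muc2, Fcgbp, Zg16, Spink4 and Agr2 had 88, 66, 24, 10 and 2, and cells are named here by marker gates, each class by its marker genes ("fibroblast" stands for fibroblast-gated).

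The libraries held 6167 to 13792 barcodes and 22646246 to 73102988 UMIs each. In all, 67477 cells were kept and 64411 were gated, of which 58% were fibroblasts, 30.6% smooth muscle cells, 6.39% macrophages and 2.25% endothelial cells. The fourth knockout library stood apart, with 368 smooth muscle cells, where the others held 2116 to 5384, and 572 endothelial cells, where the others held 61 to 242. Pairs of libraries shared 68 to 218 cell barcodes, at most 1.79% of the smaller library. Slc38a2 in endothelial cells was 199.6, 279, 329.9 and 283 CPM in the knockout libraries and 459, 393 and 340.5 in the flox libraries. The groups did not overlap, beside 6.84% of all genes tested there. The difference did not pass the test (log2 fold change -0.46, SE 0.22, adjusted p = 0.852, edgeR quasi-likelihood test), and UMIs from outside the deleted part would not report the deletion. The log2 fold change of Slc38a2 was -0.43 (SE 0.20) in macrophages, -0.39 (SE 0.27) in fibroblasts and -0.09 (SE 0.19) in smooth muscle cells. The genotypes overlapped in each of these other classes. The endothelial fold change itself was close to those of macrophages and fibroblasts.

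The promoters of 4 ligands are shown as examples. They are some of the genes that lead the sending classes or the genotype comparison, and Cxcl12 was the most even of the 4 across libraries. Each covers 250 bases before and 50 after the start of the gene on its own strand, from RefSeq on GRCm38.p6. Capitals mark matches, on either strand, to GGG and TTCC with any 3 bases between them, a pattern bound by NF-kB proteins, or to GAAA and GAAA with any 2 bases between them, a pattern bound by interferon regulatory factors. Matches on both strands of a near-palindrome overlap and are counted separately.
Cxcl1, chr5:90890995-90891294, + strand: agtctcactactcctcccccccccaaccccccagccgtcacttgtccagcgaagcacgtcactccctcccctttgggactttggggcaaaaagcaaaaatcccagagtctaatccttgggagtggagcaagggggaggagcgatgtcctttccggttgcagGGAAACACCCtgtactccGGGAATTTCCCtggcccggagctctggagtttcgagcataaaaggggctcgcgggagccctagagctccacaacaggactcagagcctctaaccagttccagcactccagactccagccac
Cxcl2, chr5:90903649-90903948, + strand: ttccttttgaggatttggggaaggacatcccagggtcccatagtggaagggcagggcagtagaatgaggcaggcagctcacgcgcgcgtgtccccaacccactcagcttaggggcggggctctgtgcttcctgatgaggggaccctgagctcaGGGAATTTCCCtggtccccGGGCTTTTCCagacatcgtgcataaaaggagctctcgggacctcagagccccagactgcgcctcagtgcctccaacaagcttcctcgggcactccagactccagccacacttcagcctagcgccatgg
Cxcl10, chr5:92348840-92349139, - strand: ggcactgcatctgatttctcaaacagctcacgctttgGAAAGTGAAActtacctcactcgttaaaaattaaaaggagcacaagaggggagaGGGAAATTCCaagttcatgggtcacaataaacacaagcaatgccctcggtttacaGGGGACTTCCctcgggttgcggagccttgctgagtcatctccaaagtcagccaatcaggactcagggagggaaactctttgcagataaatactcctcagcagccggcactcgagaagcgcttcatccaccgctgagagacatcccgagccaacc
Cxcl12, chr6:117168285-117168584, + strand: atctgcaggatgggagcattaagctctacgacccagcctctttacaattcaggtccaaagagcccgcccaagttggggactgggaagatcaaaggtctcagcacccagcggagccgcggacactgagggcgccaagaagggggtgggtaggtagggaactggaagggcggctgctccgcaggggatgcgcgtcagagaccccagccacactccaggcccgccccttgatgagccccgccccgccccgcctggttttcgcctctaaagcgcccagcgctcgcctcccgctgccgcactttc
Cxcl1 and Cxcl2 held 3 matches each to the NF-kB-type pattern, Cxcl10 held 2 of them and 1 of the interferon type, and Cxcl12 held none of either. Among ligands not shown, Cxcl9, Ccl3 and Ccl6 also held none of either, while Ccl9 held 1 and Cxcl3 held 3 of the NF-kB type. Whether matches go with the spread between libraries was not tested. Of all 32851 promoters listed by RefSeq, 5.56% held the NF-kB-type pattern, against 9 of 53 promoters of the 46 members listed there, 7 of them ligand promoters. The interferon-type pattern stood in 3.44% of all promoters and in 3 member promoters, those of Cxcl10, Ccl19 and Cxcl14. A match describes the letters in this window and is not a measured binding site.

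CPM is taken of all UMIs of a class and library, and CPM values count captured molecules and are not divided by gene length. Senders were read first. Fibroblasts held 71.3% of all ligand UMIs in gated cells and macrophages 24.8%. In CPM of the pooled libraries the order was different, with 21685 for the summed ligands in macrophages, 19916 in neutrophils, 13059 in monocytes and 11059 in NK cells, and 5686 in fibroblasts, 1573 in endothelial cells, 256 in smooth muscle cells and 168 in B cells. Of 46 members tested, 24 were higher in macrophages than in the mean of the other classes, beside 36.2% of all genes (edgeR quasi-likelihood test with library as a block, adjusted p under 0.05). The count was 15 in fibroblasts beside 43.3% of all genes, 8 in endothelial cells beside 37.7%, and 1, Ccl19, in smooth muscle cells beside 44.7%. Smooth muscle Ccl19 averaged 4.66 CPM over libraries, against 37.9 CPM in pooled fibroblasts. Fibroblast markers summed to 4165 CPM in pooled smooth muscle cells and 36975 CPM in pooled fibroblasts, and their part in this value was not tested. Against all other gated cells of the same library, a comparison added after the data were seen, the counts were 23 of 38 in macrophages beside 34.9% of genes, 13 of 40 in fibroblasts beside 34.6%, 3 of 35 in endothelial cells beside 18.1%, and 1 of 37 in smooth muscle cells beside 40.5%. Of these 4 classes only macrophages had a share of members above the share of all genes, in both comparisons.

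**Figure D1:**
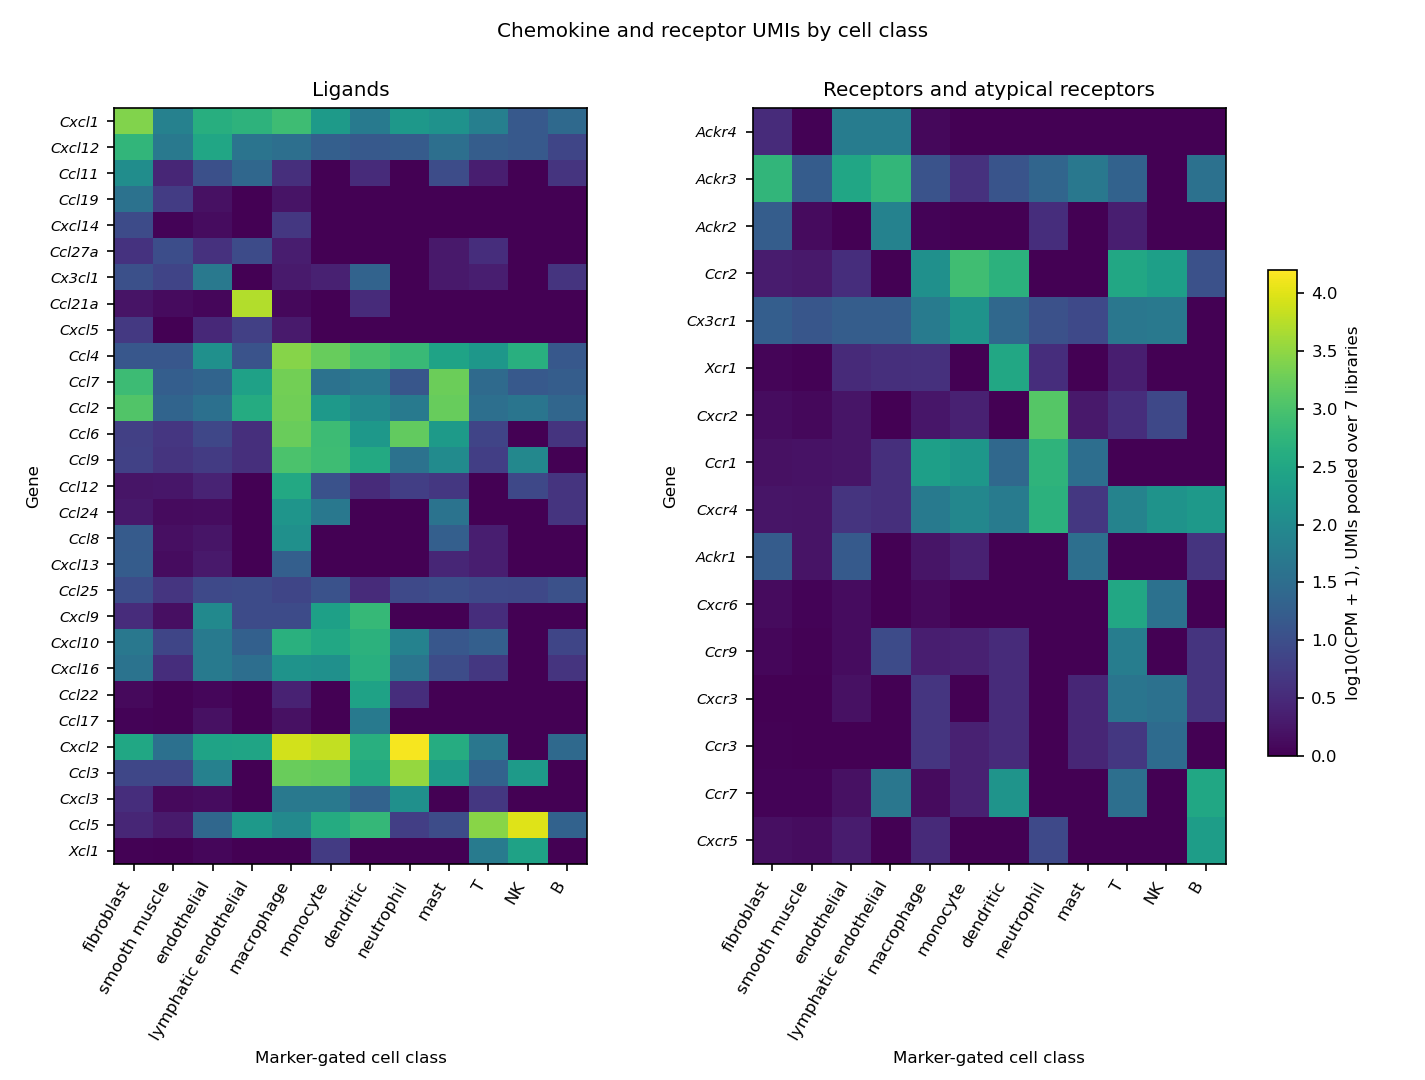
Level of 45 of the 46 members with at least 100 UMIs in 12 marker-gated classes, as log10 of pooled CPM plus 1 (colour), ligands on the left, receptors on the right. Ccl3, Ccl4, Ccl6 and Cxcl2 are high in macrophages, monocytes and neutrophils, Cxcl1 and Cxcl12 are highest in fibroblasts, and most receptors are highest in a leukocyte class.

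Fibroblasts held most Cxcl1, a neutrophil attractant, with 567628 of its 594340 UMIs. Cxcl1 was 1367, 2837, 4456 and 2542 CPM in the knockout libraries and 1287, 1882 and 6001 CPM in the flox libraries. The third library of each genotype was its highest, and the groups overlapped. After each cell was thinned to 1500 UMIs, 57.3% of fibroblasts had a Cxcl1 UMI (67.2% unthinned), and so did 5.77% of B cells (5.3% unthinned), which are not known as a source. The share of thinned B cells was 3.85% and 10% in the second and the fourth knockout libraries, and that of T cells was 15.3% in the fourth. Whether free RNA gave these UMIs was not tested. Fibroblast Cxcl1 was higher than that of macrophages by 1.69 (SE 0.20, adjusted p = 3.44e-08, edgeR fit over the 4 main classes with library as a block, added after the data were seen) on the log2 scale.

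Cxcl12 and its scavenging receptor Ackr3 were also fibroblast genes. Cxcl12 was 529.8, 608, 509 and 569.7 CPM in the knockout libraries and 579, 656 and 507 CPM in the flox libraries, a ratio of 1.29 between the highest and the lowest library. Ackr3 was 595, 669, 473 and 814 CPM in the knockout libraries and 279, 668 and 561 CPM in the flox libraries. The first flox library was the lowest for Ackr3 and the genotypes overlapped for both. Thinned shares of fibroblasts with a UMI were 43.3% for Cxcl12 and 41.9% for Ackr3, against 0.962% and 4.81% of B cells. Endothelial levels were lower than fibroblast levels for Cxcl12 (log2 difference -0.85, SE 0.16, adjusted p = 7.9e-05, edgeR) and for Ackr3 (log2 difference -1.14, SE 0.19, adjusted p = 9.76e-06, edgeR).

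The monocyte attractants Ccl2 and Ccl7 were shared by fibroblasts, macrophages and mast cells. Fibroblast Ccl2 was 772, 1131, 1822 and 1559 CPM in the knockout libraries and 676, 754 and 2029.9 CPM in the flox libraries. Macrophage Ccl2 was 1006, 2249, 2555 and 1804 CPM in the knockout libraries and 1637, 1550.2 and 3189.9 CPM in the flox libraries. The third flox library was the highest in both classes, and the genotypes overlapped in both. Fibroblast Ccl7 was 419, 851, 1317 and 897 CPM in the knockout libraries and 455, 462 and 1331 CPM in the flox libraries, with the third library of each genotype above the rest of its group. Macrophage Ccl7 was 1031, 2724, 2875 and 1425 CPM in the knockout libraries and 1928, 1335 and 3439.6 CPM in the flox libraries. Fibroblast levels were lower than macrophage levels for Ccl2 (log2 difference -0.76, SE 0.25, adjusted p = 0.00878, edgeR) and for Ccl7 (log2 difference -1.42, SE 0.30, adjusted p = 0.000167, edgeR). Of the 34 members tested between these classes, 13 were higher in fibroblasts and 20 lower, beside 40.4% and 35.4% of all genes.

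Mast cells, of which 266 were gated, reached 20 cells in 3 knockout and 2 flox libraries. Mast cell Ccl7 was 2217, 1529.6 and 1973 CPM in the knockout libraries and 940.3 and 2205 CPM in the flox libraries. Ccl2 there was 1933, 1169.7 and 1779 CPM in the knockout libraries and 931 and 2212 CPM in the flox libraries. The 2 ligands overlapped between genotypes. A Ccl2 UMI was found in 78.1% of thinned mast cells, against 69.5% of macrophages, 25.8% of fibroblasts and 1.92% of B cells. Mast cell Ccl6, a ligand of Ccr1, was 0, 217 and 367 CPM in the knockout libraries and 0 and 28.5 CPM in the flox libraries. The summed level of the 9 macrophage markers in mast cells was 20.8 to 2594 CPM in the knockout libraries and 562 to 605 CPM in the flox libraries, and its part in the mast cell values was not tested. Mast cell Ccl4 was 0, 157 and 86.2 CPM in the knockout libraries and 1051 and 128 CPM in the flox libraries (log2 fold change -2.75, SE 0.82, adjusted p = 0.345, edgeR), and Ccl3 was 0, 90.0 and 19.9 CPM in the knockout libraries and 931 and 0 CPM in the flox libraries (log2 fold change -3.76, SE 1.22, adjusted p = 0.365, edgeR). All 3 genes overlapped between genotypes, with the estimates of Ccl3 and Ccl4 negative and that of Ccl6 positive. The first knockout library, left out with 13 mast cells, held 97 Ccl3 and 98 Ccl4 UMIs of 61504. For comparison, the first flox library held 101 and 114 of 108471. The third flox library, left out with 10 mast cells, held 0 and 2 of 34255. The negative estimates of Ccl3 and Ccl4 therefore depend on the minimum of 20 cells. Ccl3 passed the genotype test without the second flox library, which leaves 1 flox library (log2 fold change -4.77, adjusted p = 0.0286, edgeR). Ccl6 passed it without the second knockout library (log2 fold change 4.27, adjusted p = 0.00137, edgeR), and not with it (log2 fold change 3.75, SE 1.32, adjusted p = 0.469, edgeR). Of 46 members, 8 were higher in mast cells than in the mean of the other classes, beside 19.9% of all genes.

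Other fibroblast ligands had lower levels. Ccl11, an eosinophil attractant, was 83.7, 128, 114 and 221 CPM in the knockout libraries and 79.7, 100.3 and 82.6 CPM in the flox libraries, with the fourth knockout library the highest. Ccl19, a ligand of Ccr7, was 58.0, 40.1, 34.1 and 30.4 CPM in the knockout libraries and 29.5, 32.5 and 36.0 CPM in the flox libraries. Cxcl13, a B cell attractant, was 1.33, 21.8, 17.9 and 9.89 CPM in the knockout libraries and 36.6, 11.1 and 3.46 CPM in the flox libraries, a ratio of 27.4 between the highest and lowest library. Both Ccl11 and Ccl19 were higher in fibroblasts than in macrophages, by 5.37 (SE 0.37, adjusted p = 1.64e-12, edgeR) and 5.61 (SE 0.27, adjusted p = 1.52e-15, edgeR) on the log2 scale. Fibroblast Cxcl2 was 169.7, 286, 497 and 303 CPM in the knockout libraries and 189.8, 162 and 1244 CPM in the flox libraries, led by the third flox library. Cxcl14 was 8.23 CPM over the pooled libraries.

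**Figure D2:**
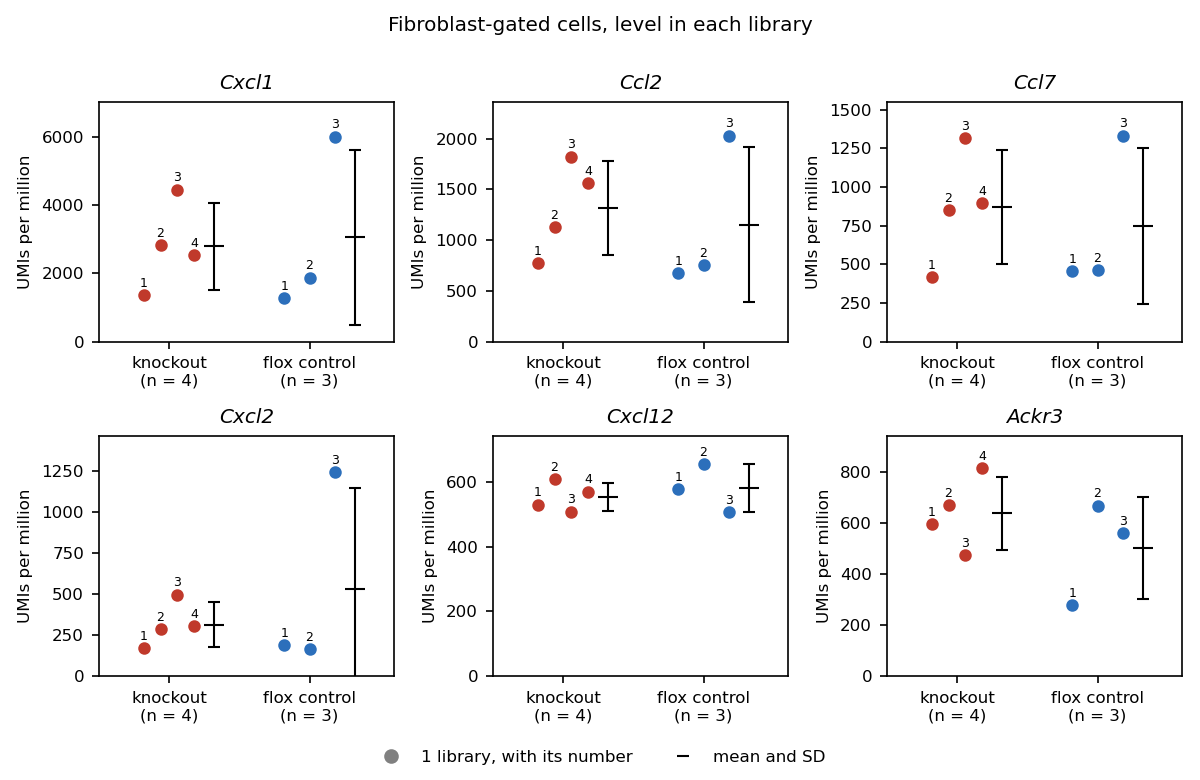
CPM in fibroblasts for 6 members, 1 point per library with its number (4 knockout libraries left, 3 flox control libraries right) and the group mean with SD (cut off at 0). The third flox library is the highest for Cxcl1, Ccl2, Ccl7 and Cxcl2, while Cxcl12 lies between 507 and 656 in all 7 libraries.

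Macrophages were led by Cxcl2, another Cxcr2 ligand, and by Ccl4 and Ccl3, which attract monocytes and T cells, with Ccl3 a ligand of Ccr1. Macrophage Cxcl2 was 4346, 9684, 9754 and 7334 CPM in the knockout libraries and 7326, 6179 and 23201 CPM in the flox libraries. Ccl4 was 2439, 2456, 3531 and 1768 CPM in the knockout libraries and 3293, 1521 and 10877 CPM in the flox libraries. Ccl3 was 1353, 1902, 2059 and 1329.7 CPM in the knockout libraries and 2073, 964 and 5890 CPM in the flox libraries. In these 3 genes the third flox library, with 157 macrophages, was above the other 6 libraries, and the genotypes overlapped. Of thinned cells 77.1% of macrophages had a Cxcl2 UMI, against 3.85% of B cells.

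Some macrophage ligands did not follow that library. Ccl6 was 2994, 1479, 1702 and 1947 CPM in the knockout libraries and 1345, 1704 and 888 CPM in the flox libraries, with the third flox library the lowest. Ccl9, also a ligand of Ccr1, was 1668, 871, 1016 and 947 CPM in the knockout libraries and 937, 962 and 808 CPM in the flox libraries, again lowest there. Ccl24, an eosinophil attractant, was 191, 141, 231 and 148 CPM in the knockout libraries and 93.9, 136 and 68.6 CPM in the flox libraries. Ccl12, a mouse ligand of Ccr2, did follow it, at 142, 419.7, 405 and 298 CPM in the knockout libraries and 367, 271 and 632 CPM in the flox libraries. Fibroblast levels were lower than macrophage levels for Ccl6 (log2 difference -8.74, SE 0.33, adjusted p = 1.39e-17, edgeR) and for Ccl9 (log2 difference -7.96, SE 0.30, adjusted p = 1.39e-17, edgeR).

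Macrophage Cxcl10, an interferon-inducible ligand of Cxcr3, was 526, 449, 508 and 197 CPM in the knockout libraries and 518, 270.3 and 2145 CPM in the flox libraries. Macrophage Cxcl1 was 299, 629, 1253 and 628 CPM in the knockout libraries and 632, 593 and 2375 CPM in the flox libraries. For both the third flox library was the highest.

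**Figure D3:**
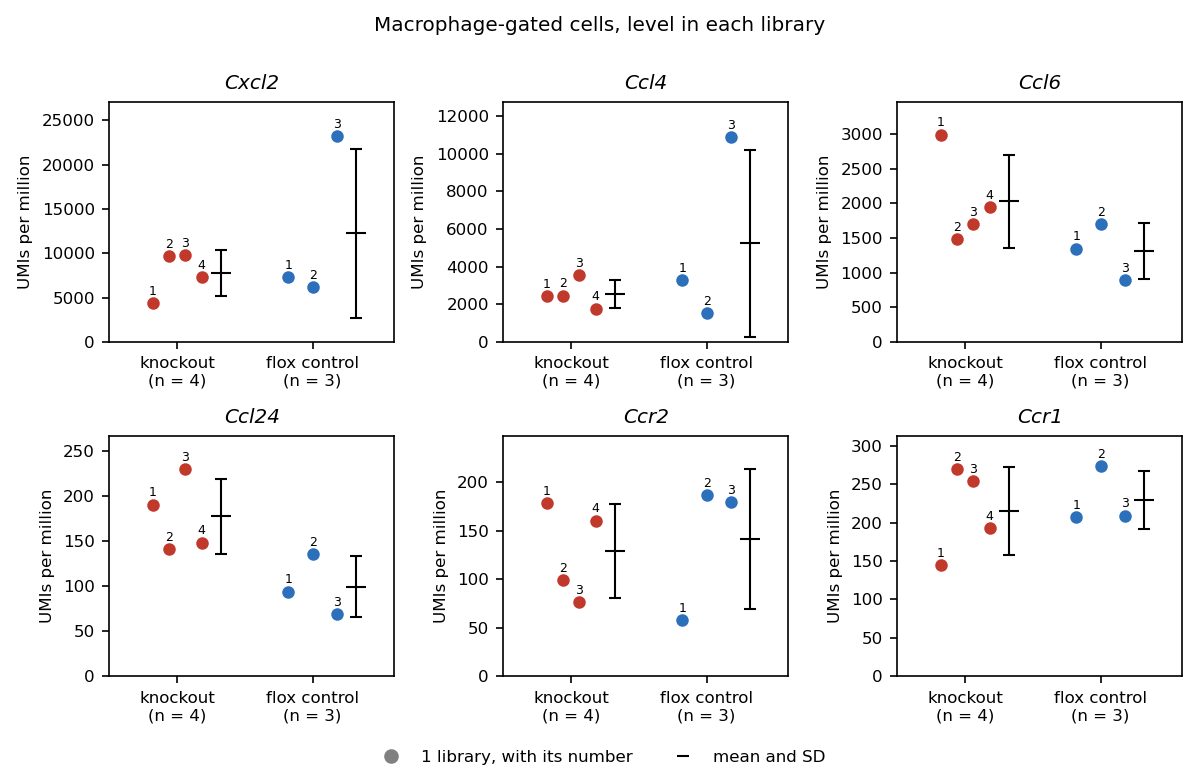
CPM in macrophages for 6 members, 1 point per library with its number (4 knockout libraries left, 3 flox control libraries right) and the group mean with SD. The third flox library is above the other 6 for Cxcl2 and Ccl4, and all 4 knockout libraries lie above all 3 flox libraries for Ccl24.

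Endothelial cells held a different mixture, led by Cxcl1, Cxcl12 and Ackr3. Cxcl1 was 125, 329.5, 647 and 453 CPM in the knockout libraries and 277, 217 and 657 CPM in the flox libraries. Cxcl12 was 529, 395, 281 and 197 CPM in the knockout libraries and 384, 444 and 374 CPM in the flox libraries, and Ackr3 was 199.6, 365, 261 and 288 CPM in the knockout libraries and 194, 421 and 331 CPM in the flox libraries. Endothelial Cxcl2 was 13.9, 216, 225 and 409 CPM in the knockout libraries and 114, 154 and 359.7 CPM in the flox libraries. None of these 4 separated the genotypes. Of 34 members tested between main classes, endothelial cells had 17 higher and 2 lower than in smooth muscle cells, beside 29% and 30.8% of all genes. They had 7 higher and 13 lower than in fibroblast cells, beside 27.6% and 29.7% of all genes, and 7 higher and 22 lower than in macrophage cells, beside 35% and 30.9% of all genes. The members higher in endothelial cells than in all other gated cells of their library were Cxcl9, an interferon-inducible ligand of Cxcr3, Cx3cl1, the membrane-bound ligand of Cx3cr1, and Ackr4, which removes Ccl19, Ccl21 and Ccl25. Cx3cl1 was 65.0, 57.4, 44.0 and 34.3 CPM in the knockout libraries and 64.7, 64.5 and 57.5 CPM in the flox libraries, and higher than in fibroblasts by 2.42 (SE 0.28, adjusted p = 7.22e-08, edgeR) on the log2 scale. Ackr4 was 0, 58.6, 69.1 and 71.6 CPM in the knockout libraries and 8.92, 46.1 and 38.4 CPM in the flox libraries, and higher than in fibroblasts by 4.02 (SE 0.26, adjusted p = 1.6e-12, edgeR). Cxcl9 was higher than in fibroblasts by 4.36 (SE 0.51, adjusted p = 7.75e-08, edgeR). Ackr2, which degrades inflammatory CC ligands, had 0 UMIs in endothelial cells, which allows up to 0.55 CPM, while pooled lymphatic endothelial cells held 72.3 CPM.

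Smooth muscle cells had the lowest ligand level of the 4 main classes. Of the 34 members they had 1 higher and 20 lower than in fibroblast cells, beside 36.9% and 37.5% of all genes, and 5 higher and 25 lower than in macrophage cells, beside 44% and 37% of all genes. Smooth muscle Cxcl1 was 41.0, 68.7, 78.5 and 91.4 CPM in the knockout libraries and 89.5, 34.0 and 111 CPM in the flox libraries, and the pooled level of 69.1 CPM was close to the 63.5 CPM of T cells. Cxcl12 was 45.1, 41.0, 48.8 and 30.9 CPM in the knockout libraries and 55.1, 54.0 and 47.6 CPM in the flox libraries. Cxcl2 was 13.7, 12.0, 43.9 and 47.6 CPM in the knockout libraries and 63.0, 29.6 and 34.9 CPM in the flox libraries. Ccl2 lay between 14.2 and 27.0 CPM in the knockout libraries and between 11 and 49.0 CPM in the flox libraries, and Ccl7 was 8.25, 10.4, 12.9 and 24.5 CPM in the knockout libraries and 51.9, 4.00 and 20.1 CPM in the flox libraries. For these 3 the first flox library was the highest. Smooth muscle Ackr3 was 12.5, 17.9, 12.7 and 28.3 CPM in the knockout libraries and 19.2, 16.7 and 23.2 CPM in the flox libraries. Ccl27a, a ligand of Ccr10, was 10.7, 10.5, 7.61 and 10.3 CPM in the knockout libraries and 7.68, 7.08 and 12.2 CPM in the flox libraries, and was higher than in fibroblasts by 1.64 (SE 0.12, adjusted p = 1.01e-11, edgeR) on the log2 scale. Its gene overlaps Il11ra1 on the other strand, and reads of the pair may not be told apart. Ccl4 was also highest in the first flox library, at 41.4 CPM there, against 8.27 and 7.62 CPM in the other flox libraries, and it was 4.87, 1.85, 11 and 10.3 CPM in the knockout libraries. The summed level of the 8 fibroblast markers in smooth muscle cells was 3214 to 4450.3 CPM in the knockout libraries and 3544 to 5122 CPM in the flox libraries, and its part in these values was not tested.

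Several small classes sent single ligands at high level. NK cells reached 20 cells only in the fourth knockout library, with Ccl5, a ligand of Ccr1, at 11432 CPM and Cxcr6 at 79.0 CPM, and pooled T cells held Ccl5 at 2857 CPM. Xcl1, the ligand of Xcr1, had 37 UMIs in NK cells and 44 in T cells, of 101 in all gated cells. Lymphatic endothelial cells held 1936 of the 2117 UMIs of Ccl21a, the ligand that draws Ccr7-bearing cells into lymph vessels, at 8376 CPM in the second flox library, the only one with 20 such cells. Ackr3 and Ackr2 were 320.5 and 121 CPM there.

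Neutrophils and monocytes reached 20 cells in the first and the fourth knockout libraries. Neutrophil Cxcl2 was 11872 and 27097 CPM, Ccl3 was 3480.3 and 4791 CPM and Ccl6 was 1523 and 1770.2 CPM in these libraries. Monocyte Cxcl2 was 6148 and 6768 CPM, Ccl3 was 1728 and 1253 CPM and Ccl4 was 1711 and 1088 CPM. Dendritic cells, with 20 cells in the second flox library alone, held Ccl4 at 1182 CPM, Cxcl10 at 906 CPM and Ccr2 at 775 CPM, and they held 113 of 216 UMIs of Ccl22 and 22 of 58 of Ccl17, both ligands of Ccr4. No genotype comparison was possible in these classes. Of the 46 members, those higher than in the mean of the other classes numbered 15 in monocyte cells beside 15.2% of all genes, 8 in neutrophil cells beside 13%, 14 in dendritic cells beside 8.54%, 12 in T cells beside 17.3%, 4 in B cells beside 7.68%, 3 in lymphatic endothelial cells beside 8.2%, 2 in NK cells beside 1.86% and 0 in Schwann cells beside 3.48%. Dendritic, lymphatic endothelial, NK and Schwann cells rest there on 1 library each, assumed to vary like the other classes. Against all other gated cells the counts were 15 of 37 in monocyte cells beside 8.48% of genes, 8 of 37 in neutrophil cells beside 7.56%, 7 of 37 in T cells beside 14%, 3 of 35 in mast cells beside 13.1% and 4 of 42 in B cells beside 4.8%. Erythroid cells had 16 of 46 members above the mean of the other classes, beside 21.4% of all genes, and 1, Cxcl9, above all other gated cells of their library, beside 2.04%. In 3 knockout and 3 flox libraries with 20 such cells Cxcl1 was 206, 543 and 730.1 CPM in the knockout libraries and 91.9, 1019 and 1358 CPM in the flox libraries, Cxcl2 was 0, 359 and 545 CPM in the knockout libraries and 68.9, 381 and 393 CPM in the flox libraries, and Ccl7 was 65.6, 215 and 189 CPM in the knockout libraries and 46.0, 323 and 123 CPM in the flox libraries. All 3 overlapped between genotypes, and stood beside 7033 to 22357 CPM of summed fibroblast markers in the knockout libraries and 3091 to 8816 CPM in the flox libraries.

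None of the 18 receptors had its highest pooled level in fibroblasts or macrophages, the classes with most ligand UMIs. Of the 18 receptors, 6 were highest in pooled T cells (Ccr8 and Ccr10 among them from 2 UMIs each), 4 in neutrophils, 3 in B cells, 2 each in monocytes and NK cells (Ccr3 in NK cells from 4 UMIs) and 1 in dendritic cells. Pooled NK values rest on 57 cells, so the 2 placements there are uncertain, and the absence of macrophages depends in part on them. By UMIs, macrophages held most of Ccr1 (4704 of 5282), Ccr2 (2517 of 3948) and Cxcr4 (1016 of 1684), so senders and receivers were in part the same classes. Cxcr2, the receptor of Cxcl1 and Cxcl2, was a neutrophil gene, with 502 of its 638 UMIs in 223 neutrophils and 1229 and 1086 CPM in the first and the fourth knockout libraries. Of thinned neutrophils 76% had a Cxcr2 UMI, against 0.0819% of macrophages. Of its other ligands, Cxcl3 was 125 CPM in pooled neutrophils and 49.7 CPM in pooled macrophages, where it reached 211 CPM in the third flox library. Cxcl5 had 885 of its 921 UMIs in fibroblasts, at 0.435, 3.14, 11.3 and 1.30 CPM in the knockout libraries and 0.742, 1.65 and 19.2 CPM in the flox libraries. Cxcr1 had 9 UMIs in gated cells, 7 of them in neutrophils.

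Ccr2, the receptor of Ccl2, Ccl7 and Ccl12, was 810.2 CPM in pooled monocytes, 495 in dendritic cells, 326 in T cells and 125 in macrophages. Macrophages held 2517 of its 3948 UMIs, and 6.85% of thinned macrophages and 0.962% of B cells had one. Ccl8, paired here with Ccr2 and Ccr8, had 3279 of its 5903 UMIs in gated cells in fibroblasts and 2548 in macrophages. Ccr1 was highest in neutrophils at 546 CPM. In macrophages Ccr1 was 145, 269.6, 254 and 193 CPM in the knockout libraries and 207, 273 and 209 CPM in the flox libraries, and the groups overlapped. Macrophages thus held Ccr1 beside its ligands Ccl3, Ccl6 and Ccl9.

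Cxcr4, the receptor of Cxcl12, was 496 CPM in pooled neutrophils, 178 in B cells, 76.0 in T cells and 50.5 in macrophages. Its level was 0.721 CPM in fibroblasts, 3.30 in endothelial and 0.693 in smooth muscle cells, where Ackr3 was 577, 300.3 and 15.9 CPM. Pooled Ackr3 was 602 CPM in lymphatic endothelial cells, little above fibroblasts, and Cxcl12 was 40.2 CPM there. This order did not hold in the second flox library, the only library that reached the minimum number of lymphatic endothelial cells. Ackr3 was 320.5 CPM in its lymphatic endothelial cells, below the level in its fibroblasts. Cxcr6, the receptor of Cxcl16, had 268 of its 367 UMIs in T cells, and 27.6% of thinned T cells had one. Cxcl16 was highest in dendritic cells at 451 CPM. Cxcr3, the receptor of Cxcl9 and Cxcl10, was 42.3 CPM in T cells, and Cxcl9 was highest in dendritic cells at 642 CPM.

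Of the lymphoid homing receptors, Ccr7, Cxcr5 and Ccr6 were highest in pooled B cells and Ccr9 in pooled T cells. Pooled Ccr7 was 322 CPM in B cells and 147 CPM in dendritic cells. In B cells of the second and the fourth knockout libraries Ccr7 was 330.1 and 248 CPM, Cxcr5 was 105 and 154 CPM and Cxcr4 was 270.1 and 77.1 CPM. Ccr6 had 19 of its 40 UMIs in B cells, while its ligand Ccl20 had none in any class. Ccr9, the receptor of Ccl25, was 0, 75.3, 361 and 0 CPM in the knockout libraries and 0 and 93.8 CPM in the flox libraries in T cells, so it came mainly from the third knockout library. Ccl25 had 1922 of its 2446 UMIs in gated cells in fibroblasts. Xcr1 was 332 CPM in dendritic cells, with 144 of its 259 UMIs. Ccr4, Ccr8 and Ccr10 had 58, 12 and 28 UMIs in kept cells. Their highest pooled level was in T cells, from 15, 2 and 2 UMIs there, and 7 of the 12 Ccr8 UMIs lay in ungated cells. Ccr3 had 100 UMIs in gated cells, 70 of them in macrophages. The ligands Ccl1 and Ccl28 of Ccr8 and Ccr10 had 82 and 73 UMIs in kept cells.

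Cx3cr1, the receptor of Cx3cl1, was highest in pooled monocytes at 141 CPM, and was 55.8 CPM in macrophages. Unlike Cxcr4 it was also at 17.2 CPM in fibroblasts, 16.3 CPM in endothelial and 12.5 CPM in smooth muscle cells. Its annotated span overlaps Gorasp1, Csrnp1 and Xirp1 on the same strand, and the part of that overlap in the low levels was not tested. Ackr1, which binds many inflammatory chemokines, was highest in mast cells at 33.5 CPM, and overlaps Cadm3 on the same strand.

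The members spread between libraries more widely than most genes did. Among genes with a mean of at least 10 CPM, the highest library exceeded the lowest by more than 3-fold, or the lowest was at 0, for 8 of 16 fibroblast members, against 3.37% of all 8286 genes. It did so for 17 of 23 macrophage members, against 15.8% of all genes, for 13 of 17 endothelial members, against 35.7%, and for 5 of 8 smooth muscle members, against 4.5%. In fibroblasts this was 8 of 12 ligands and 0 of 4 receptors. The third flox library was the highest for 11 of 23 macrophage members, and for 14.6% of all macrophage genes. These counts are descriptions without a test.

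**Figure D4:**
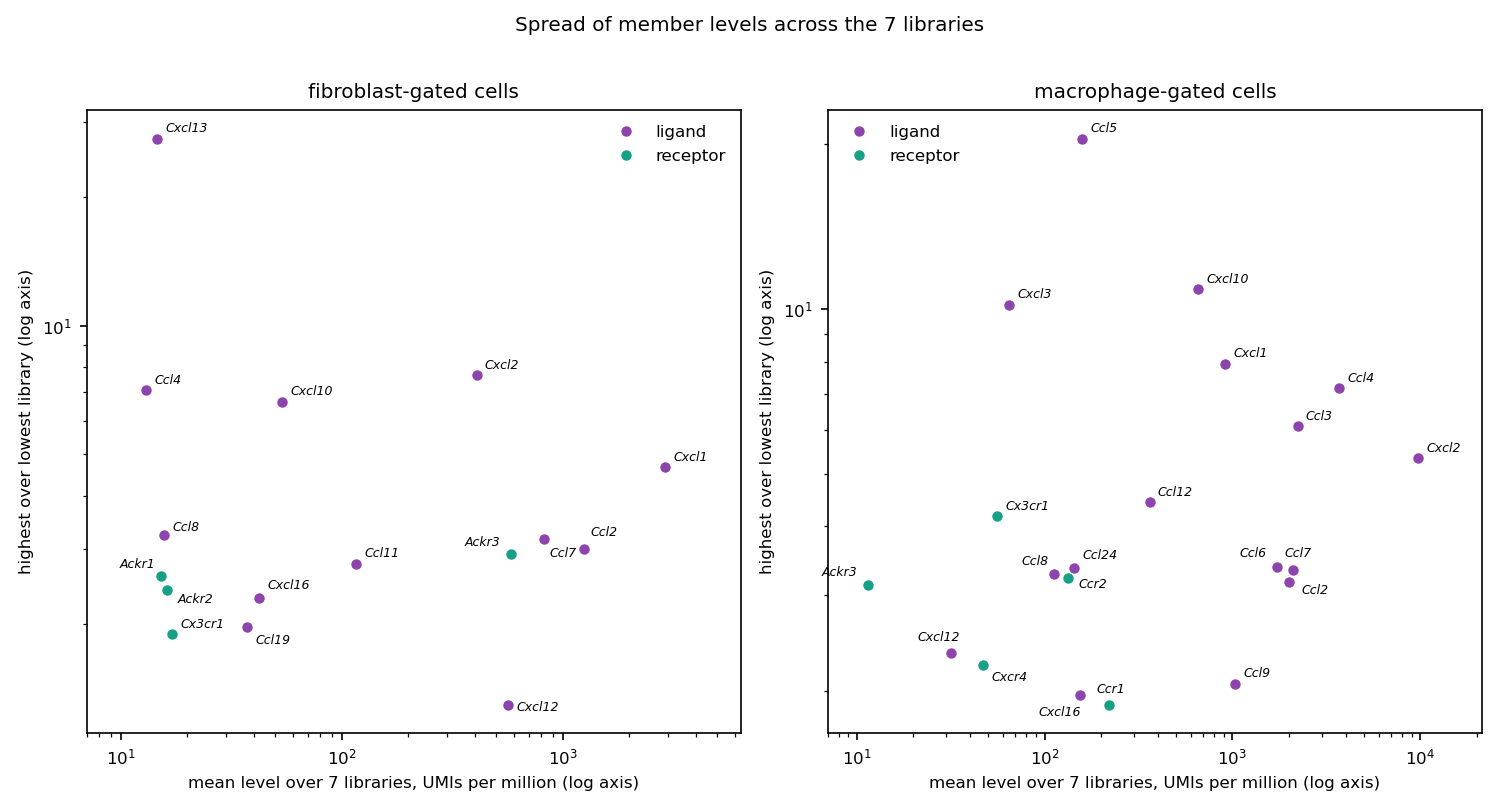
Each point is a member with a mean of at least 10 CPM in fibroblasts (left) or macrophages (right), with the mean over 7 libraries on the x axis and the ratio of the highest to the lowest library on the y axis, both on log axes; Cxcl13, with a library at 0, and 1 receptor are not drawn in macrophages. Cxcl12 has the smallest ratio in fibroblasts at 1.29, while Cxcl2 reaches 7.67 there and 5.34 in macrophages.

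Other values moved with these libraries. The summed level of 16 NF-kB targets and cytokines in fibroblasts was 3192, 5565, 8777 and 4672 CPM in the knockout libraries and 5326, 4752 and 8641 CPM in the flox libraries, highest in the third library of each genotype. In macrophages it was 4061, 5082, 5487 and 4603 CPM in the knockout libraries and 5968, 4836 and 9169.6 CPM in the flox libraries, again highest in the third of each. The summed level of 18 immediate early and heat shock genes that respond to tissue digestion was 20620.2, 24541, 16406 and 23776 CPM in the knockout libraries and 19188, 21169 and 13212 CPM in the flox libraries in macrophages, where the third library of each genotype was the lowest. In smooth muscle cells it was 9098, 7755, 13830 and 10139 CPM in the knockout libraries and 11436, 9132 and 12773.5 CPM in the flox libraries, highest in the third of each. Among the flox libraries the third was the highest in endothelial cells (25512 CPM) and the lowest in fibroblasts (20381 CPM). In these 2 classes the third knockout library was neither the highest nor the lowest of its group. The median mitochondrial share of kept cells was 6.15%, 5.63%, 7.02% and 6.07% in the knockout libraries and 4.19%, 4.67% and 7.47% in the flox libraries, highest in the third of each. The part of these values in the chemokine levels was not tested.

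The genotype comparison asks whether deletion of Slc38a2 in endothelial cells went with other chemokine levels in any class. No member passed an adjusted p of 0.05 in endothelial, smooth muscle, fibroblast or macrophage cells, with 14, 21, 38 and 29 members tested (edgeR quasi-likelihood test, Benjamini-Hochberg adjustment over all genes of the class), beside 0% of all genes called in each of these classes. DESeq2 called 0 members there. At an unadjusted p under 0.05 there were 2, 2, 5 and 2 members, beside 5.26%, 4.91%, 4.45% and 7.01% of all genes. In T, mast and erythroid cells 5, 9 and 7 members were tested and 0 were called by either tool, beside 0%, 0.27% and 0% of all genes called with edgeR, with 3, 3 and 1 members at an unadjusted p under 0.05, beside 5.67%, 8.38% and 5.18% of all genes. The median log2 fold change of the members, knockout over flox, was 0.22 in endothelial, -0.48 in smooth muscle, -0.22 in fibroblast and -0.18 in macrophage cells, beside -0.00553, -0.00499, -0.00768 and -0.0062 over all genes. The estimate was negative for 18 of 21 members in smooth muscle cells, for 25 of 38 in fibroblasts and for 18 of 29 in macrophages, and positive for 10 of 14 in endothelial cells. These classes share the libraries described above, and the signs of members within a class are not independent.

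**Figure D5:**
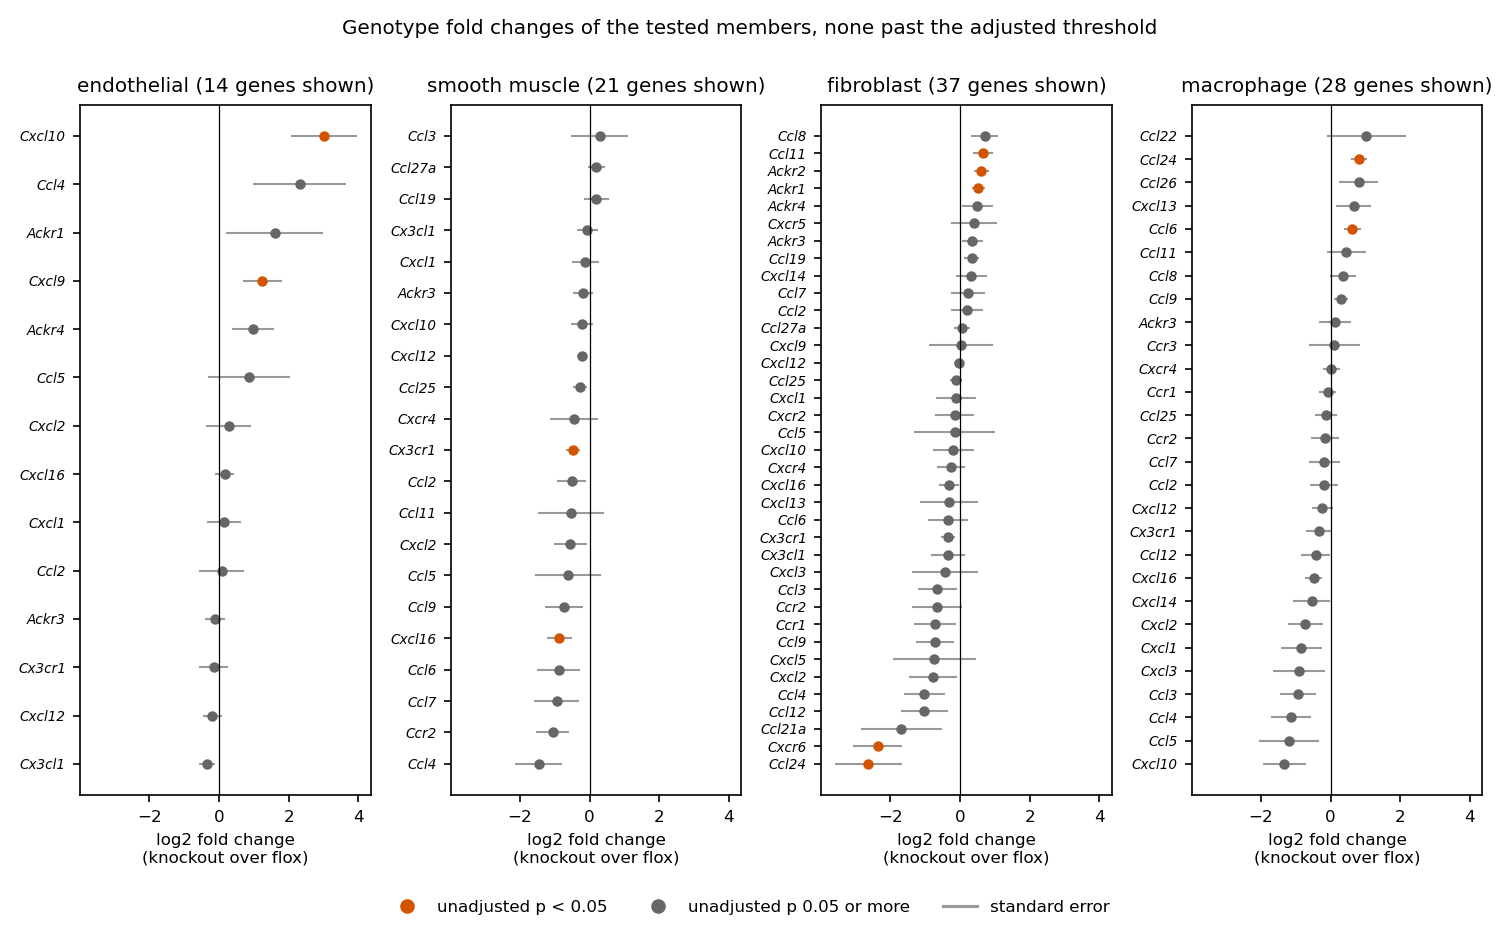
Log2 fold change, knockout over flox control, of the members tested in the 4 main classes, leaving out 1 receptor in fibroblasts and macrophages, with its standard error (edgeR). Members with an unadjusted p under 0.05 are orange, and none passed the adjusted threshold.

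In endothelial cells the members with the smallest p were Cxcl10, Cxcl9 and Ccl4. Endothelial Cxcl10 was 0, 19.5, 43.2 and 108 CPM in the knockout libraries and 6.69, 7.68 and 4.80 CPM in the flox libraries (log2 fold change 3.02, SE 0.95, adjusted p = 0.852, edgeR). Cxcl9 was 65.0, 48.8, 49.2 and 185 CPM in the knockout libraries and 55.8, 46.1 and 14.4 CPM in the flox libraries (log2 fold change 1.24, SE 0.56, adjusted p = 0.852, edgeR). Ccl4 was 0, 57.4, 4.32 and 311 CPM in the knockout libraries and 62.4, 1.54 and 4.80 CPM in the flox libraries (log2 fold change 2.32, SE 1.33, adjusted p = 0.852, edgeR). In all 3 the fourth knockout library was the highest and the genotypes overlapped, and 0 of the 14 members were without overlap, beside 6.84% of all genes. The 9 macrophage markers, all with UMIs in both genotypes, summed to 19.9 to 219 CPM in endothelial cells of the knockout libraries and 19.2 to 84.7 CPM in those of the flox libraries. The erythroid markers summed to 2.59 to 746 CPM in the knockout libraries and 16.9 to 120.4 CPM in the flox libraries. Their part in these values was not tested. Without the filter on low counts 4 endothelial members passed, Cxcl10 (log2 fold change 3.03, adjusted p = 1.38e-08, edgeR), Cxcl9 (1.25), Ccl4 (2.34) and Ccl3 (2.44), so that their calls depend on this setting. Most of the Cxcl10 UMIs came from the fourth knockout library, 211 of 277 in the knockout libraries, against 9 in all flox libraries.

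The difference between the genotype effect in endothelial cells and that in each other main class was tested for 40 members. None passed, beside 0% of 13881 genes called for each class (edgeR), with 3, 2 and 1 members at an unadjusted p under 0.05 against smooth muscle, fibroblast and macrophage cells, beside 607, 623 and 731 of the 13881 genes. The smallest adjusted p was 0.923, for Cxcl10, whose effect in endothelial cells exceeded that in macrophages by 3.40 on the log2 scale (SE 1.17, edgeR).

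In macrophages Ccl24 was above all 3 flox libraries in all 4 knockout libraries, with the values given above (log2 fold change 0.82, SE 0.23, adjusted p = 0.608, edgeR). Cxcl16, the ligand of Cxcr6, did not overlap either, at 134, 127, 133 and 132 CPM in the knockout libraries and 151, 152 and 249.8 CPM in the flox libraries (log2 fold change -0.49, SE 0.24, adjusted p = 0.685, edgeR). Of the 29 members tested in macrophages these 2 had no overlap, beside 7.81% of all genes. Ccl6 (log2 fold change 0.63, SE 0.25, adjusted p = 0.685, edgeR) and Cxcl10 (log2 fold change -1.33, SE 0.62, adjusted p = 0.685, edgeR) overlapped between genotypes. Without the third flox library the log2 fold change of Cxcl10 was 0.17, of the opposite sign.

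In fibroblasts the 3 members with the smallest p were Cxcr6, Ackr2 and Ackr1. Fibroblast Cxcr6 was 0.136, 0, 0.186 and 0.134 CPM in the knockout libraries and 1.01, 0.412 and 0.301 CPM in the flox libraries (log2 fold change -2.36, SE 0.71, adjusted p = 0.95, edgeR), which was 5, 0, 6 and 3 UMIs in the knockout libraries and 34, 17 and 4 UMIs in the flox libraries, so the values rest on few molecules. Ackr2 was 20.2, 17.7, 12.7 and 24.7 CPM in the knockout libraries and 10.3, 14.8 and 12.4 CPM in the flox libraries (log2 fold change 0.61, SE 0.21, adjusted p = 0.95, edgeR). Ackr1 was 17.9, 16.6, 14.4 and 20.9 CPM in the knockout libraries and 14.1, 14.9 and 8.06 CPM in the flox libraries (log2 fold change 0.53, SE 0.19, adjusted p = 0.95, edgeR). Ackr2 and Ackr1 overlapped between genotypes. Of the 38 members tested in fibroblasts Cxcr6 alone had no overlap, beside 4.69% of all genes.

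In smooth muscle cells the members with the smallest p were Cx3cr1, Cxcl16 and Ccr2. Smooth muscle Cx3cr1 was 10.4, 8.54, 12.3 and 9.01 CPM in the knockout libraries and 19.6, 11.5 and 14.3 CPM in the flox libraries (log2 fold change -0.48, SE 0.20, adjusted p = 0.918, edgeR). Cxcl16 was 2.02, 1.85, 1.66 and 2.57 CPM in the knockout libraries and 5.46, 1.82 and 3.66 CPM in the flox libraries (log2 fold change -0.87, SE 0.36, adjusted p = 0.918, edgeR), and Ccr2 was 0.594, 0.462, 0.645 and 1.29 CPM in the knockout libraries and 2.15, 1.27 and 0.457 CPM in the flox libraries (log2 fold change -1.06, SE 0.47, adjusted p = 0.918, edgeR). The first flox library was the highest in each, the genotypes overlapped in each, and 0 of the 21 members were without overlap, beside 5.43% of all genes. The 9 macrophage markers in smooth muscle cells summed to 16.5 to 40.6 CPM in the knockout libraries and 16.3 to 105 CPM in the flox libraries, and their part was not tested.

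T cells could be compared in 4 knockout and 2 flox libraries. T cell Cxcr6 was 167, 226, 436 and 227 CPM in the knockout libraries and 708 and 578 CPM in the flox libraries (log2 fold change -1.24, SE 0.33, adjusted p = 0.464, edgeR). Ccr2 was 425, 237, 461 and 133 CPM in the knockout libraries and 725 and 633 CPM in the flox libraries (log2 fold change -1.18, SE 0.39, adjusted p = 0.808, edgeR). All 4 knockout libraries were below both flox libraries for these receptors. Ccl5 was 4988, 2442, 1022 and 3891 CPM in the knockout libraries and 994 and 2048 CPM in the flox libraries (log2 fold change 1.04, SE 0.45, adjusted p = 0.813, edgeR) and overlapped. Without the third knockout library Cxcr6 (log2 fold change -1.52, adjusted p = 0.0134) and Ccl5 (1.31, adjusted p = 0.0295) passed the edgeR test. Of the 5 members tested in T cells 2 had no overlap, beside 15.7% of all genes, as did 0 of 9 in mast cells, beside 24.4%, and 1 of 7 in erythroid cells, beside 6.2%. These libraries held 20 to 125 T cells, and fewer cells of a T cell subset and less RNA per cell cannot be told apart.

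Genes that work with the chemokine system were read from 5 lists in the 4 main classes, and 0 of their genes were called there (edgeR). Of 16 NF-kB targets and cytokines, 15 had a negative estimate in smooth muscle cells (median log2 fold change -0.36) and 14 in macrophages (median -0.27), and the other classes had medians of -0.10 in endothelial cells and -0.15 in fibroblasts. The median over all genes was -0.00499 in smooth muscle cells and -0.0062 in macrophages. The NF-kB subunit Relb was 15.1, 14.2, 16.4 and 14.2 CPM in the knockout libraries and 26.2, 17.8 and 19.97 CPM in the flox libraries in smooth muscle cells (log2 fold change -0.42, SE 0.15, adjusted p = 0.918, edgeR). The first flox library was again the highest. For Rel the estimate there was -0.52 (SE 0.19), with the opposite sign under a stricter cell filter (0.05), and for Nfkb1 -0.60 (SE 0.27).

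Of the genes of receptor signalling and desensitisation, Rgs5, which limits G protein signalling, was 107, 128, 195 and 56.3 CPM in the knockout libraries and 337, 103 and 504 CPM in the flox libraries in endothelial cells (log2 fold change -1.29, SE 0.48, adjusted p = 0.852, edgeR), and with Leiden clusters in place of the gate the estimate had the opposite sign (0.82). Grk5, a kinase that desensitises receptors, had an estimate of -0.63 (SE 0.26) and Elmo1, a migration adaptor, -0.25 (SE 0.21) there. Of the genes that process or present chemokines, Dpp4, a protease that trims several of them, was 33.9, 43.0, 35.3 and 132 CPM in the knockout libraries and 22.1, 39.3 and 36.7 CPM in the flox libraries in fibroblasts (log2 fold change 0.91, SE 0.47, adjusted p = 0.95, edgeR). Ndst2 and Sdc1, of heparan sulfate synthesis and its core proteins, had estimates of 0.29 (SE 0.16) and -0.42 (SE 0.25). Of the leukocyte adhesion genes, the integrin Itgal was 53.1, 9.04, 2.82 and 26.9 CPM in the knockout libraries and 1.40, 3.82 and 6.53 CPM in the flox libraries in macrophages (log2 fold change 2.76, SE 0.94, adjusted p = 0.646, edgeR). Icam1 and Selplg had -0.26 (SE 0.19) and 0.34 (SE 0.25). Of 18 digestion-response genes 14 had a positive estimate in macrophages (median 0.23), with Jun at 0.57 (SE 0.29), Hspa1a at 0.67 (SE 0.38) and Egr2 at 0.40 (SE 0.26). The estimate was negative for 13 of the 18 in endothelial cells, for 13 in smooth muscle cells and for 10 in fibroblasts. None of the genes named from these lists passed.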

How the data were processed

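Cells of enzymatically digested aortas were captured with BD Rhapsody, per the labels' protocols. The authors deposited 1 matrix of UMI counts per library, and the submitters' processing notes name CASAVA 1.8, STARsolo 2.7.10a, Seurat and mm10. Barcodes with at least 200 genes and at most 25% mitochondrial counts were kept and doublets removed with Scrublet (expected rate 0.06). A cell joined the class with the highest mean log-normalised marker score if at least 3 of its markers were detected, and 4.54% of kept cells joined none. The markers hold no chemokine or receptor gene. Counts were summed per library and class with at least 20 cells and tested with edgeR 4.0.16 (R 4.3.3; quasi-likelihood, TMM, filterByExpr, Benjamini-Hochberg at 0.05). CPM in the text uses all UMIs of the class. Classes in 1 library rest on the spread pooled over the other classes. Genes were named by rule: the 6 highest and the 3 with the smallest genotype p in each main class, the 3 highest of those called in each smaller class, every receptor with its ligands, and up to 3 genes per list. Other genes are descriptions chosen after their values were seen. The members and lists were chosen with earlier results of these data known. The tests were checked on simulated data. Alternatives were DESeq2 1.42.0, its size factors, no low-count filter, a stricter cell filter, doublets kept, a stricter gate, Leiden clusters (scanpy 1.11.5), and each library left out. The values of 1 receptor and 1 marker gene are not reported here.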

Additional observations from a re-analysis of the deposited data

Results flagged for a closer look

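Among 33 groups of 4 knockout libraries examined for a library far from the others, 1 stood out, and chance flags about 1 in 20 such groups. Endothelial Cxcl9 was 185 CPM in the fourth knockout library, where the other knockout libraries held 65.0, 48.8 and 49.2 CPM and the flox libraries 55.8, 46.1 and 14.4 CPM.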

How the results depend on the processing

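In the 4 main classes the count of members called by genotype was 0 under every alternative run, except for 4 endothelial members without the filter on low counts. That setting, which lets rarely counted genes enter, called 51 genes in endothelial cells, 7 in smooth muscle cells and 39 in macrophages, against 0 with the filter. It also called 4 members in the smaller classes (Ccl3, Ccl4 and Ccl6 in mast cells, Ccl6 in erythroid cells) and put 3 members higher in smooth muscle cells, against 1. DESeq2 called 10 genes in smooth muscle cells, 8 in fibroblasts and 2 in macrophages. Correlations of same-numbered libraries' deviations ran from -0.04 to 0.22. With no values of different-numbered libraries beside them, they cannot tell whether library numbers pair the samples. With library number as a replicate block 4 genes were called in smooth muscle cells, 8 in fibroblasts, 1 in macrophages, and 2 members in the smaller classes, Cxcr6 and Ccl5 in T cells. The mast cell fit with the block was not possible. Leaving out 1 library at a time gave 0 to 3 genes called in smooth muscle cells, 0 to 6 in fibroblasts and 0 to 1 in macrophages, the upper values all without the fourth knockout library. It gave 0 to 2 members called in the smaller classes (without the third knockout library, as described for T cells; without the second knockout or the second flox library 1 each, in mast cells, where leaving out the second flox library leaves 1 flox library that is assumed to vary like the others), and 1 to 3 members higher in smooth muscle cells, 3 without the fourth knockout library and 2 without the first flox library. The macrophage log2 fold change of Cxcl10 then lay between -1.79 and 0.17, and without the third flox library it was 0.17, against -1.33. Under the stricter cell filter 3 members were higher in smooth muscle cells, 10 differed between endothelial and smooth muscle cells, against 19, and Rel in smooth muscle cells was at 0.0457, against -0.52. The stricter gate gave 50 members higher in the smaller classes, summed, against 82. The comparison with the other gated cells, added after the data were seen, gave 38 there, and 3 in endothelial cells, against 8. With Leiden clusters Rgs5 in endothelial cells was at 0.82, against -1.29. The cause of these shifts was not tested. The other counts stayed within 1.5 times of those reported, and the other fold changes named in the 4 main classes kept their direction and side of the threshold, except that Ccl4, Cxcl10, Cxcl9 and Rgs5 in endothelial cells and Itgal in macrophages passed without the low-count filter. Depth limits the small classes, where 3 UMIs amount to 21.2 CPM in NK cells, against 0.0136 CPM in fibroblasts.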
